A study of Mus musculus with 6 samples.

Results

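Glycolysis splits glucose into pyruvate, and lactate dehydrogenase turns pyruvate into lactate when mitochondria do not take it up. The genes described here are 35 glycolysis and hypoxia-response genes of the mouse: glucose and lactate transporters, the glycolytic enzymes, the enzymes that set glycolytic flux and pyruvate entry into mitochondria, the oxygen-sensing genes and other well-known targets of hypoxia-inducible factor. They were taken by name, as the probes of the array table whose gene name is on this list. The list itself was chosen with earlier results of these data known. Of 45281 probes, 63 carried such a name, and they covered 34 of the 35 genes; the hexokinase gene listed as HK2 was not analysed here. After a filter on dim probes, 51 of the 63 probes and 30 of the 34 genes were tested, among 14154 genes in all.

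RNA levels were measured on Illumina bead arrays in cultured malignant epithelial cells from a pancreatic carcinoma of 1 KPC-Brca1 mouse. The labels give the model only by the name KPC-Brca1 and spell out no allele, promoter or age. All 6 plates came from the same kind of short-term explant: 3 were left untreated and 3 were kept for 48 h in 0.5 µM decitabine (5-aza-dC, DAC), a cytidine analog that is taken up into DNA and inhibits DNA methyltransferases. By its title the series looks for genes that DAC activates. Here the question was which glycolysis and hypoxia-response genes differed between treated and untreated plates. The replicates are plates of 1 culture, so p-values measure only the spread between plates, which may be technical.

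Under low oxygen, cells stabilise the protein Hif1a, which pairs with Arnt and switches on genes for glucose uptake, glycolysis, lactate export and blood vessel growth. With oxygen present, prolyl hydroxylases of the Egln family mark Hif1a for destruction, and the genes Egln1 and Egln3 are themselves induced by hypoxia, which closes a feedback loop. Several glycolytic steps are served by isozymes encoded by separate genes, such as the aldolases Aldoa and Aldoc, and the isozymes differ in where they are used. Pancreatic carcinomas are known as tumours with little oxygen and high glycolysis, although cultured cells usually grow in air. The arrays measure RNA, and Hif1a is controlled largely at the level of its protein, which was not measured.

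Mean intensity lay between 313.16 and 459.96 per array, and between 19890 and 21462 probes were detected, meaning that their detection p-value was under 0.05. Over probes detected on all arrays, the squared difference between untreated replicates 2 and 3 was at the median 1.19 times the bead variance, against 2.43 to 5.64 between DAC arrays and 11.6 and 13.7 between untreated replicate 1 and the other two. Untreated replicate 1 therefore stood apart from its group, and the results below are given with and without it where it matters. The labelled cell type was checked by its markers: the keratins Krt8, Krt18 and Krt19 were detected on all 6 arrays, whereas Epcam was not detected on any. Ptprc (CD45) and Cd3e, markers of leukocytes, and Pdgfrb, Dcn and Lum, markers of fibroblasts, were not detected on any array either. Other markers of the same lists were detected on all 6 arrays: Acta2, Col1a1 and Pdgfra of the fibroblast and stromal list, and Cd14, Cd68 and Fcgr3 of the macrophage and leukocyte list, with Cd14 at a mean log2 signal of 10.35 untreated and 9.74 with DAC.

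Levels are given as background-corrected, quantile-normalised log2 signal, and differences as DAC minus untreated on that log2 scale, ± standard error (SE), with n = 3 in each group. A constant of 16 was added before taking log2, so fold changes of dim genes are understated. Each gene was compared with limma's moderated test, and it was called changed when its p-value, adjusted over all 14154 genes by the Benjamini-Hochberg method, was under 0.05. By this rule 17.3% of all genes changed, of which 10.1% of genes rose and 7.21% fell.

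By limma's test none of the 30 genes rose, 9 fell (30%) and 21 did not pass. Those that fell were Aldoc and Pfkm among the glycolytic enzymes, Pdk1 at the entry of pyruvate into mitochondria, the oxygen-sensing genes Hif1a, Egln1 and Egln3, and the hypoxia targets P4ha1, Vegfa and Ddit4. At an unadjusted p under 0.05 in limma's test the counts were 1 higher (Car9) and 11 lower of the 30 genes. Among all 14154 genes they were 2289 higher and 2237 lower. The log2 fold change was negative in 25 of the 30 genes (83.3%), against 52.8% of all genes. Its median was -0.23 over these genes, with a range from -1.37 to 0.57, and -0.02 over all genes tested. The untreated and DAC arrays did not overlap for 11 of the 30, each with DAC lower; among all genes tested 36.2% had no overlap, 18.7% with DAC lower. In bulk RNA, fewer cells that use a gene and less of its RNA per cell cannot be told apart.

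The number of calls depended on the libraries. Without untreated replicate 1, 13 of these genes fell and 2 rose, against 15.3% and 17.8% of all genes. Without untreated replicate 2 or without untreated replicate 3, 4 fell, against 2.65% and 3.02% of all genes; without DAC replicate 1, 2 or 3, 6, 5 and 5 fell, against 4.61%, 2.42% and 3.12%.

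**Figure D1:**
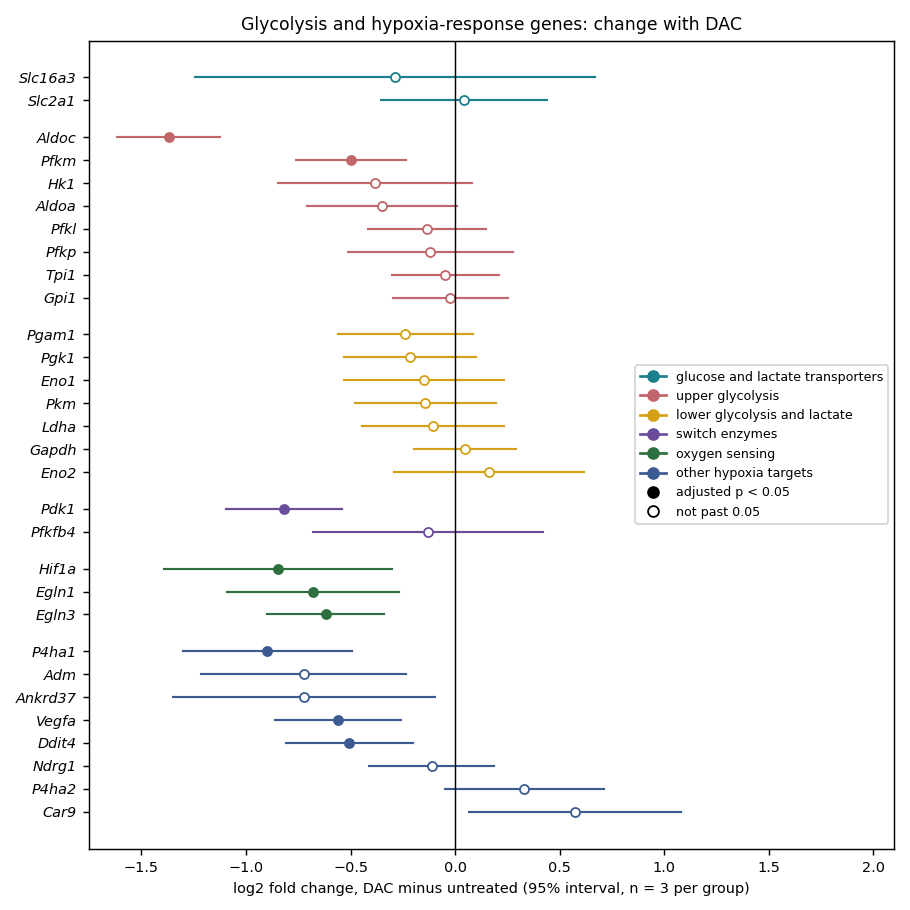
Log2 fold change, DAC minus untreated, of the 30 glycolysis and hypoxia-response genes tested, in rows grouped by role; points are fitted values, lines are 95% intervals (n = 3 per group) and filled points have an adjusted p under 0.05 in limma's test over all genes. The 9 filled points all lie below 0, from -1.37 for Aldoc to -0.50 for Pfkm, and none of the 7 genes of lower glycolysis and lactate is filled.

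Hypoxia-inducible factor binds a short core, ACGTG or GCGTG, that holds a CG pair, the dinucleotide whose methylation DAC lowers; neither binding nor methylation was measured here. The promoters of the 3 fallen genes Aldoc, P4ha1 and Pdk1, which had the lowest adjusted p, and of Egln3, one of the oxygen-sensing genes, are shown to let the core be seen in place. The promoter of Ldha, a textbook target that did not pass the test, is shown for contrast. Each runs 5′ to 3′ on the strand of its gene, from 250 bases before to 50 after a start site, as listed by RefSeq on GRCm38.p6. Capitals mark the core on either strand (CACGT and CACGC are its reverse), and an unbroken CACGTG holds it on both strands.
Aldoc, chr11:78322823-78323122, plus strand: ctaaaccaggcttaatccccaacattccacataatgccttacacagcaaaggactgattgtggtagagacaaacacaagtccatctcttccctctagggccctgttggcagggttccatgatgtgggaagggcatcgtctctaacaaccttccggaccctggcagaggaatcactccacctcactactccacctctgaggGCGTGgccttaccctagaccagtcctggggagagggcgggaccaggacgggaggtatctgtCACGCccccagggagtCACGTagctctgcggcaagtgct
P4ha1, chr10:59323046-59323345, plus strand: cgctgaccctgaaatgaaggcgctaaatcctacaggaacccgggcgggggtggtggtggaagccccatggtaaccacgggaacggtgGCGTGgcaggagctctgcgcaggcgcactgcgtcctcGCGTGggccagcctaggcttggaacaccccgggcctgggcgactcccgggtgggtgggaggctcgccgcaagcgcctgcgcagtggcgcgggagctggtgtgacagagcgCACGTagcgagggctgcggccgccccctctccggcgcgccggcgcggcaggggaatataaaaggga
Pdk1, chr2:71872974-71873273, plus strand: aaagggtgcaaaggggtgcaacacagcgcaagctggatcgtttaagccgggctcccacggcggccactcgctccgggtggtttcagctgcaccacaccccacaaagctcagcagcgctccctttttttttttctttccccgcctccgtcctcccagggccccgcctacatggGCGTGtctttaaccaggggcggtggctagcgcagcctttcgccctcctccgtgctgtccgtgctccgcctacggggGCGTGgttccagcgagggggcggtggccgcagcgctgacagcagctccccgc
Egln3, chr12:54203825-54204124, minus strand: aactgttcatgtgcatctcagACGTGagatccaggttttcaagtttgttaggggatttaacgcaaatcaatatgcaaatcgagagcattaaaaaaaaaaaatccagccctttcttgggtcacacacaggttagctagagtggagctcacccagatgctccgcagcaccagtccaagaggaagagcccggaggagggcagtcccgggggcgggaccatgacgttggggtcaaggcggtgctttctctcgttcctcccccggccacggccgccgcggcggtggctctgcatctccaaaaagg
Ldha, chr7:46845554-46845853, plus strand: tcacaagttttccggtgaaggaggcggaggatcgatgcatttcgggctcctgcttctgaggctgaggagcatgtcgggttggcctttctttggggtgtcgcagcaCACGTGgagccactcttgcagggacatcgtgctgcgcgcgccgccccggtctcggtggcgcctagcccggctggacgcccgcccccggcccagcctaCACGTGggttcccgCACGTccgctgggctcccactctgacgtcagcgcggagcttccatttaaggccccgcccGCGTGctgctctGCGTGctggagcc

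The core starts 3 times in the Aldoc window, 3 times in that of P4ha1, 2 times in that of Pdk1 and 1 time in that of Egln3, against 7 times in that of Ldha. Aldoc's window holds 8 CG pairs, the fewest of the windows shown and near the median of 7 over all promoters. The window of P4ha1 holds 32, that of Pdk1 25, that of Egln3 16 and that of Ldha 30. Of the 34 genes with a probe, 32 had a promoter in the table. The first listed promoter held the core in 8 of the 9 genes that fell (88.9%) and in 14 of the 20 matched genes that did not pass (70%). Over all 32851 promoters of the same length the share was 43.8%, and over those with at least 15 CG pairs it was 71.4%. The median number of CG pairs was 25 in the fallen genes, 19 in those that did not pass and 7 over all promoters. The exception among the fallen genes was Vegfa, whose first listed window holds no core. These counts use only the first listed promoter, and further listed windows of Vegfa, Hk1, Aldoa and Pkm do hold the core. Over all promoters the core was more common in windows rich in CG. Among these genes it was common whether the gene fell or not, and their windows were not split by CG content.

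Glucose enters through Slc2a1 (GLUT1) and lactate leaves through Slc16a3 (MCT4), and neither transporter passed the test. The log2 signal of Slc2a1 was 10.83, 10.34 and 10.38 on untreated replicates 1 to 3 and 10.31, 10.72 and 10.65 on DAC replicates 1 to 3, a change of 0.04 with a 95% interval from -0.36 to 0.44. Slc16a3 gave 6.86, 8.28 and 8.59 untreated and 8.07, 7.32 and 7.49 with DAC, a change of -0.29 with a wide interval from -1.24 to 0.67. In Slc16a3, untreated replicate 1 differed from the mean of the other untreated plates by -1.57, and the groups overlapped. The neuronal-type glucose transporter Slc2a3 (GLUT3) had no probe past the filter: its probe was detected on 0 of 3 untreated and 2 of 3 DAC arrays.

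Upper glycolysis, from hexokinase to triose phosphate isomerase, had 2 of its 8 tested genes called, both lower with DAC (25%). All 8 fitted values were negative, with a median of -0.24. Among all genes tested 7.21% fell and 52.8% had a negative fitted value. Aldoc (ALDOC on the array) encodes aldolase C, an isozyme of the enzyme that splits fructose 1,6-bisphosphate and is best known from brain. Its log2 signal was 9.97, 9.93 and 10.06 on the untreated arrays and 8.56, 8.60 and 8.68 with DAC. The plates of each group lay close together, whereas the groups lay much farther apart. The log2 fold change was -1.37 ± 0.11 (adjusted p = 9.57e-05), a 2.58-fold lower signal with DAC. Aldoc ranked 10 among all 14154 genes when ordered from the largest fall. A further Aldoc probe was not detected on any array, so the result rests on 1 probe.

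The muscle-type aldolase A gene Aldoa, the most widespread form, gave 12.50, 12.88 and 13.02 untreated and 12.56, 12.32 and 12.46 with DAC. The groups overlapped through untreated replicate 1, and the log2 fold change of -0.35 did not pass (95% interval -0.71 to 0.01, adjusted p = 0.164). The gap between both aldolases within each array, Aldoc minus Aldoa, was -2.53, -2.95 and -2.96 untreated and -4.01, -3.72 and -3.78 with DAC. This gap changed by -1.02 log2 units, with no overlap, but an exact permutation test of 3 against 3 arrays cannot go below p = 0.1, which it gave here.

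Phosphofructokinase catalyses the main regulated step of glycolysis and is encoded by 3 genes. The muscle-type gene Pfkm fell, from 11.00, 10.75 and 10.79 on the untreated arrays to 10.38, 10.32 and 10.34 with DAC, without overlap. Its log2 fold change was -0.50 ± 0.12 (adjusted p = 0.0211), or a 1.41-fold lower signal. The liver-type gene Pfkl gave 11.12, 11.03 and 10.87 untreated and 10.77, 10.85 and 11.00 with DAC, with overlapping groups and a change of -0.13 (95% interval -0.42 to 0.15). The platelet-type gene Pfkp changed by -0.12 (-0.51 to 0.28) and also overlapped. The remaining upper enzymes did not pass: the hexokinase gene Hk1 changed by -0.38 (-0.85 to 0.08), the phosphoglucose isomerase gene Gpi1 by -0.02 (-0.30 to 0.25) and the triose phosphate isomerase gene Tpi1 by -0.05 (-0.30 to 0.21).

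Lower glycolysis and lactate formation did not change detectably. None of the 7 genes passed limma's test, none had an unadjusted p under 0.05, none had groups without overlap, and their median log2 fold change was -0.14. Among all genes tested 17.3% changed and 36.2% had no overlap. Gapdh, the glyceraldehyde 3-phosphate dehydrogenase gene often used as a reference, gave 13.26, 13.28 and 13.32 untreated and 13.42, 13.27 and 13.30 with DAC. Its log2 fold change was 0.05 with a 95% interval from -0.20 to 0.29, and it turned to -0.07 with median scaling in place of quantile normalisation. Ldha, which encodes the lactate dehydrogenase subunit that favours lactate formation, gave 13.08, 13.42 and 13.38 untreated and 13.39, 13.16 and 13.00 with DAC. The groups overlapped, and the change was -0.11 (-0.45 to 0.23).

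The ATP-forming enzyme genes of lower glycolysis, Pgk1 and Pkm (PKM2 on the array), changed by -0.22 (95% interval -0.53 to 0.10) and -0.14 (-0.48 to 0.20). The phosphoglycerate mutase gene Pgam1 changed by -0.24 (-0.56 to 0.08). Without untreated replicate 1 it was called lower, with -0.37 (adjusted p = 0.0275). The enolase genes lay on either side of 0, with -0.15 (-0.53 to 0.23) for the widespread form Eno1 and 0.16 (-0.29 to 0.62) for the neuronal form Eno2. The intervals leave room for falls of the size seen in Pfkm for Pgk1, Pgam1 and Eno1, but none of the 7 intervals reaches the fall of Aldoc. Several of these genes, Gapdh among them, have many near-identical pseudogene copies, and which of those copies the probes could bind was not tested.

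The switch enzymes decide how fast glucose is committed to glycolysis and whether pyruvate enters the mitochondria. Pdk1 encodes pyruvate dehydrogenase kinase 1, which shuts the pyruvate dehydrogenase complex and is a classical hypoxia target. It gave 9.51, 9.77 and 9.75 untreated and 8.95, 8.78 and 8.84 with DAC, and the groups lay well apart. The log2 fold change was -0.82 ± 0.12 (adjusted p = 0.00307), or a 1.76-fold lower signal. Pfkfb4, one of the bifunctional enzymes that make and break fructose 2,6-bisphosphate, gave 7.76, 6.99 and 6.93 untreated and 6.79, 7.17 and 7.33 with DAC. Its groups overlapped and the change was -0.13 (95% interval -0.68 to 0.42); without untreated replicate 1 it was 0.14. Its relative Pfkfb3 had no probe past the filter and was detected on 1 untreated array and on no DAC array.

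All 3 oxygen-sensing genes fell, with no overlap between the groups and a median log2 fold change of -0.68. Among all genes tested 7.21% fell and 18.7% had no overlap with DAC lower. Hif1a (HIF1A on the array), the oxygen-regulated subunit of the transcription factor, gave 9.70, 10.25 and 10.24 untreated and 9.65, 9.21 and 8.79 with DAC. The lowest untreated plate, replicate 1, was only slightly above the highest DAC plate, which was also a replicate 1. The log2 fold change was -0.85 ± 0.24 (adjusted p = 0.0435), close to the threshold, and in the same fit over probes in place of genes the adjusted p was 0.0521. Egln1, also known as PHD2 and the main oxygen sensor of the family, gave 6.79, 6.89 and 7.19 untreated and 6.48, 5.93 and 6.42 with DAC, a change of -0.68 ± 0.18 (adjusted p = 0.0347). Egln3 (PHD3), a family member that hypoxia induces strongly, fell from 10.02, 10.13 and 10.05 to 9.27, 9.58 and 9.49, a change of -0.62 ± 0.12 (adjusted p = 0.0108).

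Leaving out 1 array ended some of these calls. In fits that lacked untreated plate 2 or 3 or DAC plate 2 or 3, the adjusted p of Hif1a was 0.129 to 0.137 and its change -0.84 to -0.63. In these same 4 fits the adjusted p of Egln1 was 0.0674 to 0.119 and its change -0.75 to -0.51. Hif1a also missed the threshold with cyclic loess (adjusted p = 0.0507) and without a filter (0.118), as did Egln1 without a filter (0.0803), and without background correction the change of Egln1 was -0.45. Of the single arrays, only untreated replicate 2 ended the call of Egln3 when left out, with -0.59 and an adjusted p of 0.0560.

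**Figure D2:**
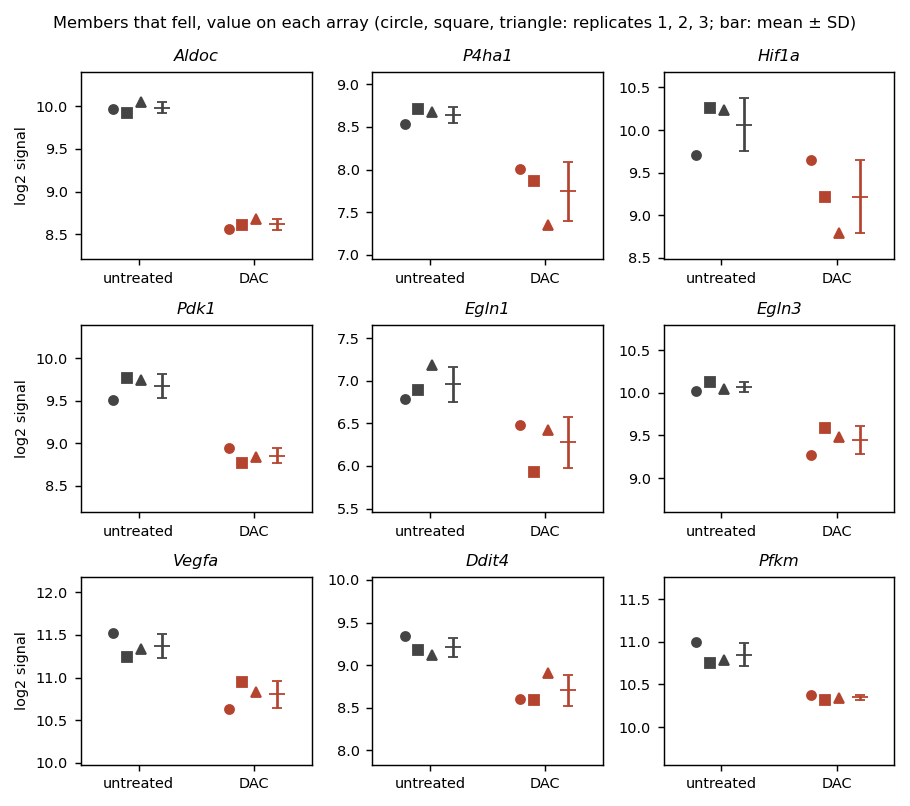
Log2 signal of the 9 genes that fell, one panel per gene, with untreated plates on the left and DAC plates on the right; symbols are replicates 1, 2 and 3, bars the mean ± SD (n = 3), and every panel spans the same width of the log2 scale. The DAC plates lie below the untreated plates in all 9 panels, with the widest gap in Aldoc and the narrowest in Hif1a.

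Of the other hypoxia targets, 3 of 8 tested genes fell (37.5%), 5 had groups without overlap, each with DAC lower, and the median log2 fold change was -0.53. Among all genes tested 7.21% fell and 18.7% had no overlap with DAC lower. P4ha1 encodes the main catalytic subunit of collagen prolyl 4-hydroxylase. Its signal fell from 8.53, 8.71 and 8.68 untreated to 8.01, 7.87 and 7.35 with DAC, the DAC plates being the more scattered. The log2 fold change was -0.90 ± 0.18 (adjusted p = 0.0106), or a 1.86-fold lower signal. P4ha2, which encodes the other widely used catalytic subunit, gave 9.14, 8.71 and 8.61 untreated and 8.97, 9.21 and 9.27 with DAC. It did not pass, with 0.33 (95% interval -0.05 to 0.71).

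Vegfa, the growth factor for blood vessels, gave 11.52, 11.24 and 11.34 untreated and 10.64, 10.95 and 10.83 with DAC. It fell by 0.56 ± 0.13 on the log2 scale (adjusted p = 0.0227), a 1.48-fold lower signal, with no overlap. Ddit4 (REDD1), a stress-induced inhibitor of the kinase complex mTORC1, gave 9.34, 9.17 and 9.12 untreated and 8.61, 8.60 and 8.91 with DAC. It fell by 0.51 ± 0.13 (adjusted p = 0.0334), or 1.42-fold. Both calls, and that of Pfkm, were lost when some single arrays were left out, with little change in size.

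For Vegfa the adjusted p was 0.0516 to 0.0694 in fits that lacked untreated plate 2 or 3 or DAC plate 1 or 3. For Ddit4 it was 0.0737 to 0.130 in fits that lacked untreated plate 2 or 3 or DAC plate 1 or 2. For Pfkm it was 0.0502 to 0.0868 without any one of the 5 arrays other than untreated replicate 1. With median scaling the adjusted p was 0.0562 for Vegfa and 0.0609 for Pfkm. In the fits above that lost a call by leaving out 1 array, the log2 fold changes lay between -0.62 and -0.45. Without untreated replicate 1, where these calls held, they were -0.48 for Vegfa, -0.44 for Ddit4 and -0.42 for Pfkm. The calls of Aldoc, Pdk1 and P4ha1 held whichever array was left out.

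**Figure D3:**
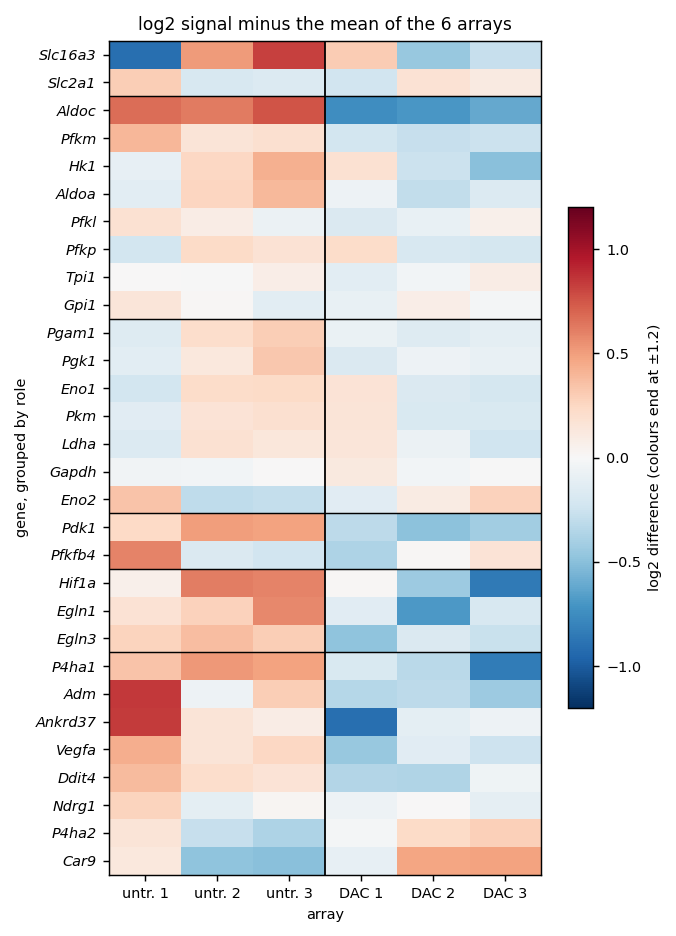
Log2 signal of the 30 genes tested, minus each gene's mean over the 6 arrays, with arrays in columns and genes in rows grouped by role; red is above and blue below the gene's mean. Aldoc, Pdk1 and P4ha1 are red on all 3 untreated arrays and blue on all 3 DAC arrays, whereas Car9 and P4ha2 are blue on untreated replicates 2 and 3 and red on DAC replicates 2 and 3.

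A pair of hypoxia targets had groups without overlap but did not pass. Adm encodes adrenomedullin, a peptide that widens blood vessels, and gave 6.07, 5.16 and 5.52 untreated and 4.88, 4.91 and 4.79 with DAC. Its log2 fold change was -0.72 (95% interval -1.21 to -0.23, adjusted p = 0.0513), and its probe was detected on all 3 untreated but only 2 DAC arrays, so it lies near the detection limit. It passed with median scaling (-0.74, adjusted p = 0.0477), and without untreated replicate 1 (-0.48, 0.0257) or 2 (-0.94, 0.0212). Ankrd37, which encodes a small ankyrin-repeat protein induced by hypoxia, gave 8.49, 7.82 and 7.75 untreated and 6.75, 7.54 and 7.59 with DAC. In both groups replicate 1 stood away from the other two, upward when untreated and downward with DAC, and the change was -0.72 (-1.35 to -0.10, adjusted p = 0.108).

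Car9, the membrane carbonic anhydrase that helps tumour cells export acid, gave the highest fitted value. Its signal was 6.50, 5.89 and 5.87 untreated and 6.28, 6.84 and 6.86 with DAC. The groups overlapped through both replicates 1, and the change of 0.57 did not pass (95% interval 0.06 to 1.08, adjusted p = 0.117). Ndrg1, a stress-response gene often used as a marker of hypoxia, changed by -0.11 (-0.41 to 0.19). It is also on the array under the name NDRL, and the mean of its tested probes gave -0.22 (adjusted p = 0.179). Bnip3, which directs mitochondria to autophagy, and Ero1a, which drives disulfide formation in the endoplasmic reticulum and is listed as ERO1L on the array, were not detected on any array by probes of those names.

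Untreated replicate 1 lay more than 0.5 log2 units above the mean of untreated replicates 2 and 3 in 5 of the 30 genes (16.7%, against 11.7% of all genes). These were Pfkfb4 (by 0.80), Adm (0.74), Ankrd37 (0.71), Eno2 (0.64) and Car9 (0.62). DAC replicate 1 stood above the other two DAC plates by more than 0.5 in Slc16a3, Hk1 and Hif1a (10% of these genes, against 2.64% of all genes). In the opposite direction, untreated replicate 1 lay more than 0.5 below its group's other plates in Slc16a3 and Hif1a (6.67%, against 8.92% of all genes), and DAC replicate 1 in Car9 and Ankrd37 (6.67%, against 3.41%). Without untreated replicate 1, the genes added to those that fell were Slc16a3, Aldoa, Pgam1 and Adm. Their changes in that fit were, in this order, -0.81 (adjusted p = 0.0207), -0.50 (0.0142), -0.37 (0.0275) and -0.48 (0.0257). The 2 that rose in that fit were Car9, with 0.78 (adjusted p = 0.0117), and P4ha2, with 0.49 (adjusted p = 0.0198). What set untreated replicate 1 apart was not tested.

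Within-array gaps were compared for 6 pairs of related genes in all, by two-sided exact permutation tests whose smallest possible p is 0.1. Besides the aldolases, 2 pairs reached this smallest p. The gap P4ha2 minus P4ha1 was 0.61, 0.00 and -0.07 untreated and 0.96, 1.35 and 1.92 with DAC, a change of 1.23. The gap Pfkm minus Pfkl changed by -0.37, from -0.12, -0.28 and -0.08 to -0.39, -0.53 and -0.66. For these 3 pairs the adjusted p over the 6 pairs was 0.2, and with its smallest p this test could call no pair. The 95% interval of the change ran from -1.49 to -0.56 for the aldolases. For P4ha2 minus P4ha1 it ran from 0.25 to 2.21, and for Pfkm minus Pfkl from -0.64 to -0.09. These intervals use the spread within groups and were not adjusted for the number of pairs. The changes of Pfkp minus Pfkl (0.01, p = 1), Eno2 minus Eno1 (0.31, p = 0.6) and Egln3 minus Egln1 (0.06, p = 1) lay within the spread between arrays, with exact two-sided p-values; the 95% interval of the last ran from -0.73 to 0.85.

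The separate probes of a gene were compared next. Over probes, 15% changed, 8.34% rose and 6.62% fell in the whole table; of the 51 probes of these genes 13 fell (25.5%) and none rose. Of the 15 genes with several tested probes under their listed names, 14 had all fitted values of one sign. Probes under other array names, which 3 of the genes also have, were not compared here. Both tested probes fell for P4ha1, with -0.98 and -0.90, and for Vegfa, with -0.60 and -0.56. Of the 3 probes each of Egln1, Egln3 and Pfkm, 2 fell and the third was also lower, with ranges from -0.68 to -0.55, from -0.68 to -0.42 and from -0.89 to -0.50. Car9 was the exception in sign, with 0.57, 0.36 and -0.12. For Hif1a the other 2 probes did not pass the filter, so no further probe bears on it.

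**Figure D4:**
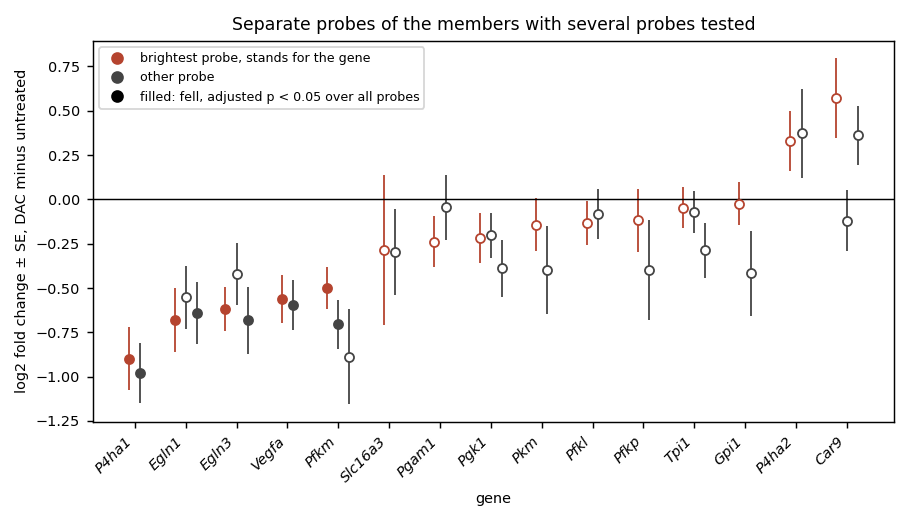
Log2 fold change ± SE (DAC minus untreated, n = 3 per group) per tested probe of the 15 genes with several under their listed names. Filled points have an adjusted p under 0.05 over all 21415 probes tested. Points of P4ha1, Vegfa, Egln1, Egln3 and Pfkm lie together below 0, while those of Car9 lie on both sides of it.

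Genes of neighbouring pathways were described from lists chosen with earlier results of these data known. Among 10 tested further glycolytic enzymes, 2 rose, 1 fell (10%) and the median log2 fold change was 0.14. Hkdc1, a hexokinase-like gene, rose from 5.97, 5.26 and 5.10 to 7.67, 8.19 and 8.02, a change of 2.52 ± 0.24 (adjusted p = 0.000284). Fbp2, the muscle form of the gluconeogenic enzyme fructose-1,6-bisphosphatase, rose from 5.14, 4.96 and 4.96 to 7.37, 7.63 and 7.93, a change of 2.62 ± 0.16 (adjusted p = 2.26e-05). Both were near the lower end of the scale in untreated cells, and no plate of one group came near the other. Bpgm, which makes 2,3-bisphosphoglycerate, fell by 1.17 ± 0.25 (adjusted p = 0.0158); without untreated replicate 2 or without DAC replicate 1 or 2 its adjusted p was 0.0527 to 0.0654.

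Of 14 tested genes of pyruvate and lactate fate, 1 rose and 1 fell (7.14%), with a median of -0.07. The transporter gene Slc2a6 rose by 1.21 ± 0.23 (adjusted p = 0.00975; 0.0521 without DAC replicate 2). Pdk2, a relative of Pdk1, was called lower by a narrow margin and in only 5 of 16 other settings. It fell by 0.49 ± 0.14 (adjusted p = 0.0464; 0.0691 to 0.159 in fits that lacked untreated plate 2 or 3 or DAC plate 2 or 3). Its call was also lost with median scaling (adjusted p = 0.0937), with cyclic loess (0.0712) and without a filter (0.0702), and its change shrank to -0.23 without background correction (0.103) and to -0.27 with an offset of 50 (0.0824). None of the 10 genes of the pentose phosphate pathway, which branches from glycolysis to make NADPH and ribose, passed in limma's test. At an unadjusted p under 0.05 there were 1 higher and 2 lower, against 2289 higher and 2237 lower among all 14154 genes.

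Of 16 tested genes of the hypoxia-inducible factor machinery, 1 rose and 1 fell (6.25%), with a median of -0.11. Arnt, the partner of Hif1a, fell from 9.63, 9.65 and 9.68 to 9.04, 9.14 and 9.11, a change of -0.56 ± 0.10 (adjusted p = 0.00826). The mean of its tested probes gave only -0.08 (adjusted p = 0.642), so its probes disagree. Siah1b, of a family of ubiquitin ligases that act on the prolyl hydroxylases, rose by 0.83 ± 0.17 (adjusted p = 0.0114; 0.0503 without DAC replicate 3), and the mean of its tested probes gave 0.54.

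Among 33 further hypoxia targets, 7 fell (21.2%, against 7.21% of all genes), 2 rose and the median was -0.23. Lower with DAC were an adenylate kinase gene listed as AK3L1, by 0.77 ± 0.12 (adjusted p = 0.00432), and Stc1, which encodes the hormone stanniocalcin, by 0.62 ± 0.14 (adjusted p = 0.0185). Bnip3l (NIX), a relative of Bnip3, fell by 0.48 ± 0.11 (adjusted p = 0.0188), from 11.58, 11.49 and 11.42 to 10.96, 11.07 and 11.01. Lox, which cross-links collagen, went the other way. It was not detected untreated, and its signal with DAC was at least 1.54-fold higher than the lowest detected signal on the untreated arrays. Lox passed the filter on dim probes only through the DAC arrays, so its place among the 2 that rose depends on that filter, and its p-value is not read as support. The count of 7 was 10 without untreated replicate 1, against 15.3% of all genes in that fit. It was 1 without untreated replicate 2 or DAC replicate 2, against 2.65% and 2.42% of all genes. It was 2 when untreated replicate 3, DAC replicate 1 or DAC replicate 3 was left out, against 3.02%, 4.61% and 3.12% of all genes. Stc1 missed the threshold without untreated replicate 2 or without DAC replicate 1 or 2 (adjusted p 0.0517 to 0.0621), and Bnip3l without any one array other than untreated replicate 1 (0.0523 to 0.0818).

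Markers of other cell types moved in the same comparison. Of 10 fibroblast and stromal markers, 3 were tested and 2 rose, Acta2 by 2.23 ± 0.23 and Col1a1 by 2.22 ± 0.24 on the log2 scale, and 6 were not detected on any array. The mean of the tested probes of Acta2 gave 1.28 (adjusted p = 0.000107), so its probes differ in size. The summed linear signal of this list was 333.3 to 369.8 untreated and 1252 to 1705 with DAC. Of 10 macrophage and leukocyte markers, 4 were tested: Fcgr3 rose by 1.24 ± 0.13, Laptm5 was higher by at least 3.93-fold, Cd14 fell by 0.60 ± 0.11, and 5 were not detected on any array. Laptm5 was not detected untreated and passed the filter on dim probes only through the DAC arrays. The summed signal of the 4 tested genes was 1602 to 1657 untreated and 1344 to 1445 with DAC. Cd14 was the brightest of them, at a mean log2 signal of 10.35 untreated against 7.77 for Cd68, the next. The sum therefore follows mainly Cd14, while Fcgr3 and Laptm5 rose and Cd68 did not pass.

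Epithelial markers summed to 26070 to 31530 untreated and 30340 to 34230 with DAC; 7 of 8 were tested, Cldn4 rose by 1.75 ± 0.12 and Krt7 fell by 0.47 ± 0.13. Krt7 missed the threshold in fits that lacked untreated plate 2 or 3 or DAC plate 2 or 3 (adjusted p 0.150 to 0.157). The endothelial list (2 of 8 tested, 6 not detected on any array) summed to 83.57 to 99.01 and 113.6 to 130.5, and in it Esam rose by 1.14 ± 0.14. The acinar and endocrine list (1 of 6 tested, 5 not detected) summed to 19.52 to 27.52 and 28.67 to 45.53. The part of these shifts in the lower signal of the glycolysis and hypoxia-response genes was not tested.

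**Figure D5:**
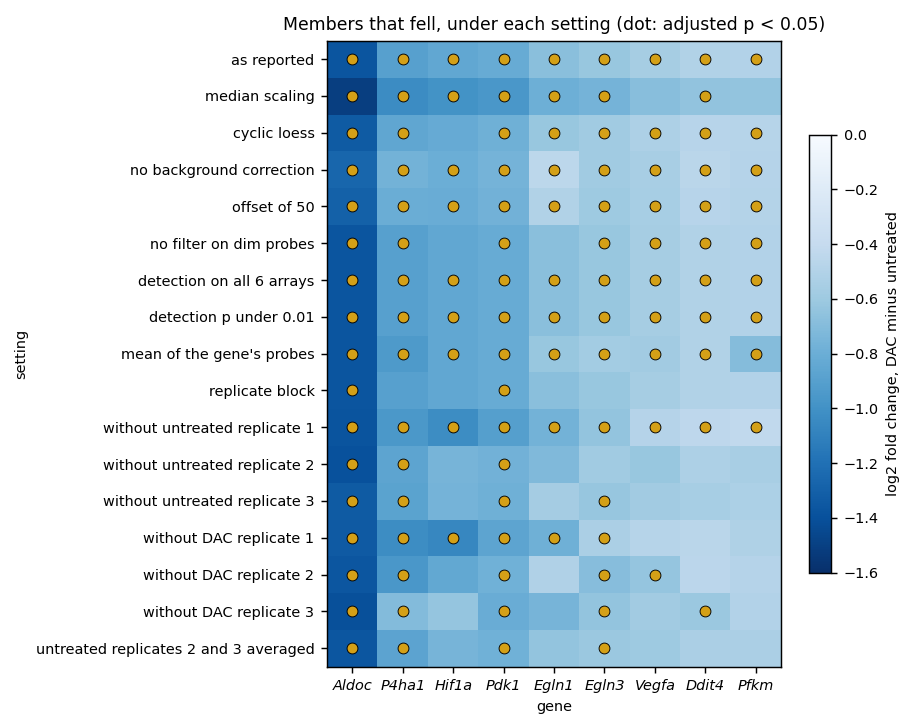
Log2 fold change, DAC minus untreated, of the 9 genes that fell (columns) as reported and under 16 other settings (rows); darker blue is a larger fall, and a dot marks an adjusted p under 0.05. Every cell is negative; Aldoc and Pdk1 have a dot in all 16 other settings, P4ha1 in 15, Egln3 in 14, Ddit4 in 10, Egln1 and Vegfa in 9, and Hif1a and Pfkm in 8.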

How the data were processed

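Illumina bead arrays measured total RNA of 3 untreated and 3 DAC-treated plates. Per the file headers, the deposited table that is not normalized holds for each probe and array a mean bead intensity and a detection p-value; how the authors scanned and exported the arrays is not given in the sources used here. These intensities are linear and had no negative value. A second deposited table of intensity values was not used, because nothing used here ties its identifiers to genes.

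Background was corrected and arrays were quantile-normalised with limma 3.58.1 (R 4.3.3), with negative controls inferred from the detection p-values, an offset of 16 and log2. Probes with a detection p under 0.05 on at least 3 of 6 arrays were kept (21415). A gene is its probe with the highest mean, which left 14154 genes. Of 30854 array names, 16223 matched a RefSeq symbol (GRCm38.p6), 5684 a synonym, and 8947 were kept as written. The fit was lmFit and eBayes without covariates, with Benjamini-Hochberg adjustment over all genes, and it was tested on simulated data. All adjusted p-values of genes and probes come from limma.

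The genes, lists and markers were chosen with earlier results of these data known. Every gene on the list is accounted for; those that passed, and isozymes of those, are given array by array. Of each other list up to 4 called genes with the lowest adjusted p, and of each marker list up to 2, are named; Cd14 and the markers listed as detected or not detected were named beyond this, after their values were seen. The number of arrays limits the precision. Motifs were counted in 300-base promoters. Alternatives changed the normalisation, background, offset, filter, probe choice, block and arrays.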

Additional observations from a re-analysis of the deposited data

How the results depend on the processing

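The counts of called genes, their median and each named gene were recomputed under 16 alternatives, except that Lox and Laptm5 have no value with detection on all 6 arrays, and Adm none with that filter or with a detection p under 0.01; the isozyme gaps, the promoter counts and the counts of the remaining lists, other than that of further hypoxia targets, were not. The number of the 30 genes that fell was 9 as reported, against 7.21% of all genes. It was 8 with median scaling or cyclic loess, against 6.83% and 5.56% of all genes. It was 9 without background correction (7.84% of all genes), with an offset of 50 (7.82%) or with detection on all 6 arrays (7.85%). It was also 9 with a detection p under 0.01 (8.08%) or with the mean of a gene's probes (8.32%). Without a filter 7 fell, against 3.28% of all genes. Median scaling lost Pfkm and Vegfa and added Adm, cyclic loess lost Hif1a, and the fit without a filter lost Hif1a and Egln1. The count was 5 with untreated replicates 2 and 3 averaged into 1 sample (2.78% of all genes), and 4 to 13 when single arrays were left out. The number that rose stayed 0, except for 2 without untreated replicate 1 (range 0 to 2 over the left-out arrays). The median log2 fold change of -0.23 became -0.36 with median scaling, -0.20 with cyclic loess, -0.27 with the mean of a gene's probes, -0.17 with the averaged replicates and -0.35 to -0.18 without single arrays. Median scaling moved the median of all genes from -0.02 to -0.12; relative to it these genes lay at -0.23, against -0.21 as reported and -0.22 with cyclic loess. The same scalings gave 4 and 5 of 33 further hypoxia targets lower, against 7, the averaged replicates gave 1, and the splits of all genes were 907 higher and 967 lower with median scaling, 1618 and 787 with cyclic loess, and 1429 and 1021 as reported. With the replicate number as a block, 2 of the 30 genes fell (Aldoc and Pdk1), 0 rose, 1 of the further hypoxia targets fell and 1.25% of all genes fell. Samples that share a number did not deviate together (correlations -0.61, -0.11 and -0.48, against up to 0.53, 0.52 and 0.56 with another number), so the numbers are not read as pairs. Without background correction the changes of the dim genes Fbp2 and Hkdc1 shrank to 1.61 and 1.68, and those of Lox, Laptm5 and Esam to 0.42, 1.36 and 0.57. None of the 9 fallen genes turned its sign under any of the 16 alternatives. Some of the fitted values near 0 did, in fits that did not call the gene. Leaving out single arrays moved Slc2a1 (0.04 as reported) from -0.0460 to 0.200, Gpi1 (-0.02) from -0.0908 to 0.0444, Pfkfb4 (-0.13) from -0.277 to 0.136, Slc16a3 (-0.29) from -0.812 to 0.0527 and Tpi1 (-0.05) from -0.104 to 0.0066. The -0.812 of Slc16a3 came from the fit without untreated replicate 1, which did call it lower (adjusted p = 0.0207). Slc2a1 was also -0.0953 with median scaling and -0.0378 with the averaged replicates, Gapdh was -0.0703 with median scaling and Gpi1 was 0.0183 with cyclic loess. The cause of these shifts was not tested; fits without an array also have fewer samples. The alternative with the authors' second table was not run, since its probes could not be paired with names. Signal over background limits Adm, which was not detected on 1 DAC array, and the 4 genes with no probe past the filter.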
